A study of Mus musculus with 2 samples.

Results

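The nuclear-encoded genes of oxidative phosphorylation were described in single cells of mouse long-bone marrow. Members were the genes listed in the adult and old libraries whose symbols begin with Nduf and a subunit letter, Uqcr, Cox4 to Cox8 with a subunit letter, or Atp5, with at least 50 UMIs (unique molecular identifiers, 1 per captured RNA molecule) over both libraries. Of 82 matching symbols, 5 were left out. Cox5b-ps is a pseudogene, and Cox7b2 with 49 UMIs, Cox8b with 18, Cox8c with 9 and Ndufb11b with 4 lay under the minimum. The members nearest above it were Cox6a2 with 133 UMIs and Cox7a1 with 399. This gave 77 members of 34144 listed genes, of which 20944 had as many UMIs. They comprised 36 genes of complex I, 8 of complex III, 15 of complex IV and 18 of complex V. Atp5o is listed under 2 identifiers that overlap on the same strand, so its reads may be split between them and each row by itself is uncertain. The pattern misses Cox4i1, Cox4i2, Ndufab1, Cyc1 and the whole of complex II, which are given beside the members where a result touches them.

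Oxidative phosphorylation takes electrons from NADH and succinate through complexes I to IV of the inner mitochondrial membrane to oxygen, and complex V, the ATP synthase, uses the proton gradient so formed to make ATP. Most subunits are encoded in the nucleus and imported, while a small core is encoded by mitochondrial DNA. Erythroid precursors that make haem are known to use mitochondria heavily.

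The study compared stromal cells, the non-blood-forming cells of the marrow, of adult and old mice. The mice of both groups were wild-type C57BL6 (C57BL6J in the protocol), with no further treatment named in the labels. Flushed long bones had been digested with enzymes, red cells lysed, haematopoietic cells depleted and live cells sorted before capture on the 10x 3′ platform. Each age group had 1 library, so the difference between ages has no replicate check and was not tested. For the mice, the age in months, the sex, the number and any pooling are not stated in the labels. All intervals below are 95% intervals that cover counting error only.

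The adult library held 25635 barcodes and the old library 22298, and after filtering 22403 and 18975 cells remained, with medians of 7139 and 7736 UMIs. The libraries shared 152 cell barcodes. Malat1, an RNA that stays in the nucleus, was at 29660 CPM (UMIs scaled to a total of 1000000) in the adult library and 24410 in the old one. Of the adult cells 0.366%, and of the old ones 2.25%, had a UMI of Ptprc, a gene of white cells, and the part of free RNA in these shares was not measured.

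Cells were placed in classes by the summed share of fixed marker genes, with thresholds set after the data were seen, so that a class is a range of marker levels and not a proven cell type. Each UMI counts 1 molecule whatever its length, and levels are CPM of the UMIs summed over a class. The 4 main classes were CAR-gated cells (markers of CXCL12-abundant reticular cells, the mesenchymal cells around marrow vessels; 14029 adult and 13032 old cells), osteolineage-gated cells (1805 and 404), endothelial-gated cells (1401 and 319) and pericyte- or smooth muscle-gated cells (380 and 175), here called pericyte-gated. Within 20% of the threshold lay 2007 adult and 993 old cells for CAR, 318 and 123 for osteolineage, 167 and 51 for endothelial and 108 and 37 for pericyte. Defining markers were present in each class of both libraries, with Cxcl12 at 8601 and 8092 CPM in CAR-gated, Cdh5 at 1051 and 879 in endothelial-gated and Rgs5 at 14840 and 12630 in pericyte-gated cells. Osteolineage-gated cells differed in makeup, with Col1a1 at 80660 CPM in adult and 22960 in old cells, Bglap at 24250 and 7117, and Spp1 at 4597 and 60810. Endothelial-gated cells differed in Stab2, a sinusoidal gene, at 1366 and 199 CPM. Markers of the pericyte gate also differed, with Myh11 at 1097 and 1772 CPM, Notch3 at 1281 and 2078, Cnn1 at 5.88 and 30.7, and Kcnj8 at 355 and 252. Among CAR markers in CAR-gated cells, Adipoq was at 1851 and 1309 CPM and Cxcl14 at 1172 and 1853. Median osteolineage marker UMIs per 10000 were 14.8 in adult and 3.25 in old endothelial-gated cells, and 14.3 and 3.03 in pericyte-gated cells, and CAR marker UMIs were 23.8 and 11.02 in osteolineage-gated cells. Chondrocyte-gated cells were found in the adult library (132 and 0), plasma cell-gated cells in the old library (0 and 1208) and neutrophil-gated cells mostly in the old one (3 and 62). Doublets were not called. Cells that passed several gates (629 adult, 154 old) were left out of every class, apart from 697 adult and 22 old cells with both CAR and osteolineage markers, which were kept as a class of their own, and 2759 adult and 2455 old cells passed no gate.

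In all 4 main classes the members took a smaller share of the RNA in the old library. In CAR-gated cells they summed to 1.08% of UMIs in the adult library and 0.890% in the old one, a log2 ratio of old over adult of −0.28 (−0.284 to −0.276). In osteolineage-gated cells the shares were 1.37% and 1.14% (−0.26, −0.27 to −0.25), and in endothelial-gated cells 0.965% and 0.840% (−0.20, −0.23 to −0.17). The widest gap was in pericyte-gated cells, at 1.53% and 1.10% (−0.48, −0.51 to −0.45). The shift was also seen in the median cell. The median CAR-gated cell gave 1.07% of its UMIs to members in the adult library, with quartiles of 0.764% and 1.40%, and 0.888% in the old library, with quartiles of 0.648% and 1.16%, so the cells of the libraries overlapped widely.

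**Figure D1:**
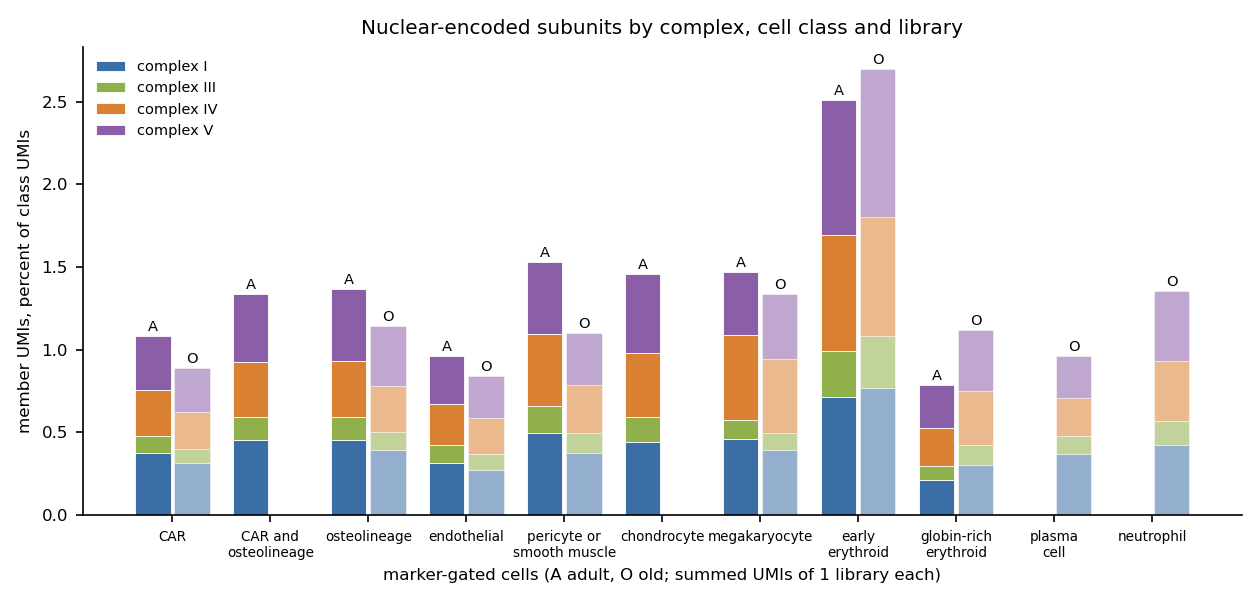
Stacked bars of the share of UMIs taken by members of complexes I, III, IV and V, in percent of the UMIs of each marker-gated class, with dark bars (A) for the adult and light bars (O) for the old library and no bar where a class had too few cells in a library. The old bar is lower in the CAR, osteolineage, endothelial, pericyte and megakaryocyte classes and higher in both erythroid classes.

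The lower share was spread over most members. Of 76 members that passed the minimum of 50 expected UMIs in CAR-gated cells, 73 were lower in the old library, with a median log2 ratio of −0.26, where 49.6% of the 16833 genes tested were lower and their median was 0.00. For 70 of the 76 the counting interval lay below 0, for 2 above it and for 4 it held 0. In osteolineage-gated cells 62 of 73 were lower (median −0.20; 33% of all genes). There the median of all genes was 0.23, and 70 of the 73 members lay below that median. In endothelial-gated cells 61 of 71 were lower (median −0.21; 53.2% of all genes), but for 44 of the 71 the interval held 0. In pericyte-gated cells 69 of 72 were lower (median −0.47; 44.8% of all genes), and for 55 of the 72 the interval lay below 0. The interval counts are given without the same share over all genes. With many UMIs an interval can leave out 0 for a small shift, so these counts do not set members apart from other genes.

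The differences were small for each gene. None of the members that passed the minimum was 2-fold apart in CAR-gated cells (10.2% of all genes were), endothelial-gated cells (8.53%) or pericyte-gated cells (7.29%), and 1 of 73, Ndufa1, was so in osteolineage-gated cells (14.5%). Of the 71 members that passed the minimum in all 4 classes, 54 were lower in the old library in each class, as were 17.7% of the 3820 genes tested in all 4. The members higher in the old library in at least 3 classes were Ndufs1 and Ndufs4, both of complex I. Their interval lay above 0 only in CAR-gated cells for Ndufs1 and only in osteolineage-gated cells for Ndufs4. The share of all genes higher in at least 3 classes was not counted. The classes come from the same libraries and are not independent of each other.

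**Figure D2:**
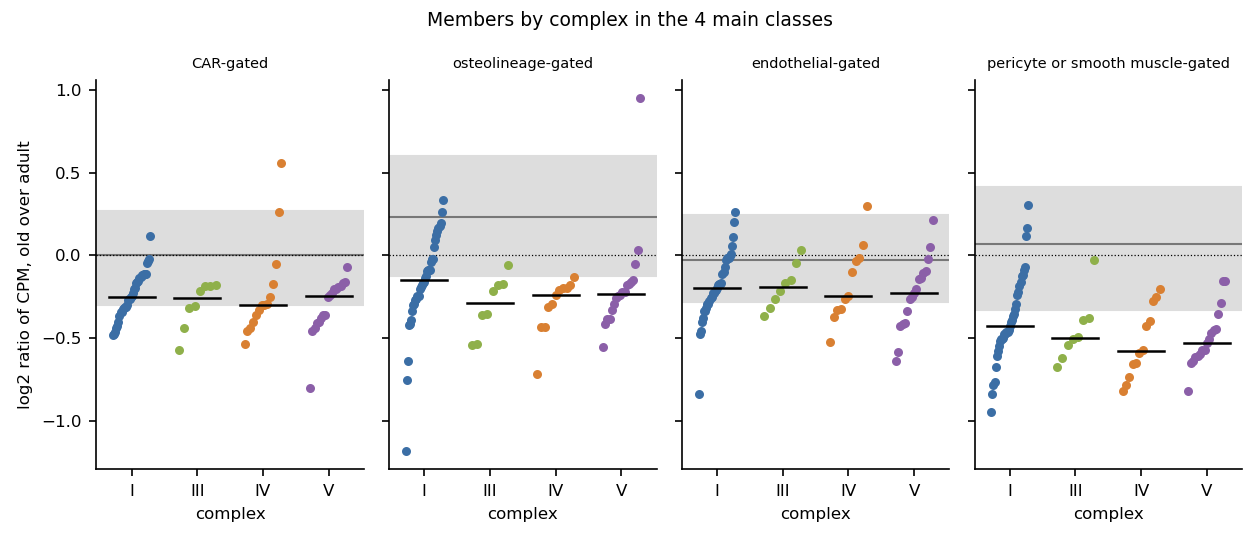
Log2 ratio of old over adult CPM of each member that passed the minimum in the 4 main classes, by complex, with each point 1 gene, black bars for medians of the complex, and the grey line and band for the median and the middle 50% of all genes tested. Most points of every complex lie below 0 in each class, and the pericyte-gated members lie lowest, with a median of −0.47.

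The size of the gap in CAR-gated cells moved with which cells and which genes were taken as the reference. CAR-gated cells also differed in osteolineage marker RNA, with a median of 73.3 such UMIs per 10000 in adult and 26.0 in old cells. Among CAR-gated cells with under 30 osteolineage marker UMIs per 10000 (1999 adult and 7187 old), a limit chosen after the data were seen, the log2 ratio was −0.18. By depth, members took 1.05% of adult and 0.905% of old UMIs in cells of 3000 to 5000 UMIs, and 0.983% and 0.802% in cells of 15000 to 30000. In the shallowest cells, of 1000 to 3000 UMIs, the order was the opposite, with 0.937% in the adult library and 1.10% in the old one.

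Start-site sequences are shown for 5 members, chosen because between them they hold each of the motifs searched and include the 3 genes of a single protein. Members that share a pathway are known to share binding letters of the factors NRF1, GABP (of the ETS family), YY1 and ERR. The letters searched on both strands were GCGCATGC for NRF1, CCGGAAGT for ETS, AAGATGGC for YY1 and TCAAGGTCA for ERR, in windows of 250 bases before to 50 bases after the start, from RefSeq on GRCm38.p6. Of 76 member symbols, 64 had such a promoter, 69 promoters in all. The windows printed are Uqcr11 (chr10:80406772-80407071, minus strand), Ndufs4 (chr13:114388045-114388344, minus), Atp5g1 (chr11:96075582-96075881, minus), Atp5g2 (chr15:102670998-102671297, minus) and Atp5g3 (chr2:73911277-73911576, minus), each 5′ to 3′ on the strand of the gene, with the matched letters in capitals, read on either strand.
Uqcr11: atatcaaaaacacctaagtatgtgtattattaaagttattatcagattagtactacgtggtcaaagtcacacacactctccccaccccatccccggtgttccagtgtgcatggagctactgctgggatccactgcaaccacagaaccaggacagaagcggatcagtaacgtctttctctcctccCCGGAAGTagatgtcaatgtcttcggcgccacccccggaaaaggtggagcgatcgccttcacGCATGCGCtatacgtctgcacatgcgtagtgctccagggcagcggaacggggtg
Ndufs4: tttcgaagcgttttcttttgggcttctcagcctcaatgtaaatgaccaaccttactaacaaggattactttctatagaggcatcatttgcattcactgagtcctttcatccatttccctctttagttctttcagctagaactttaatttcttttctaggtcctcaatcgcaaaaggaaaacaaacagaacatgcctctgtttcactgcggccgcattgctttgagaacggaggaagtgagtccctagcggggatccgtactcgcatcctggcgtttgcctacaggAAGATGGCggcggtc
Atp5g1: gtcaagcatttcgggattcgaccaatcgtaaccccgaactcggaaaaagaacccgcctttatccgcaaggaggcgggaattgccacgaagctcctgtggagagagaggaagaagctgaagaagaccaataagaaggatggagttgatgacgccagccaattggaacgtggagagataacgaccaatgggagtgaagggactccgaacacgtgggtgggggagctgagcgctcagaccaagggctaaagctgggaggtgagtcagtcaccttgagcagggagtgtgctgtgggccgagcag
Atp5g2: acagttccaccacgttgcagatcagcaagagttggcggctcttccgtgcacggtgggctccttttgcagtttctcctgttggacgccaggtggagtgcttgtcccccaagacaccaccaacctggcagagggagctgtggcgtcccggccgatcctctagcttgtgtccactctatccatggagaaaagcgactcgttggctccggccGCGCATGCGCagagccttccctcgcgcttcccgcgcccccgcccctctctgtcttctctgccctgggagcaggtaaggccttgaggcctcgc
Atp5g3: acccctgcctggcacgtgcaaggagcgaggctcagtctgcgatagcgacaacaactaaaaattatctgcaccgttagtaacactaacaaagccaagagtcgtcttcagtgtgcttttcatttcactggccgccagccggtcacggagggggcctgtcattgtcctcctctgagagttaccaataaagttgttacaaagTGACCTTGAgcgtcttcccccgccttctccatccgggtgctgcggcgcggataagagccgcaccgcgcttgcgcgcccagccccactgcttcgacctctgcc
Uqcr11 held both NRF1 and ETS letters and was the 1 member promoter with more than 1 of these motifs. Ndufs4 held the YY1 letters just after its start, Atp5g2 the NRF1 letters, Atp5g3 the ERR letters on the opposite strand, and Atp5g1 none.

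The YY1 letters were found in 10 of 69 member promoters (14.5%), against 2.75% of all 32851 promoters. NRF1 letters were found in 9 (13.0%, against 2.71%), ETS letters in 5 (7.25%, against 3.89%) and ERR letters in 1 (1.45%, against 0.423%). At least 1 of the motifs was held by 24 member promoters (34.8%), against 9.25% of all. The YY1 letters stood in 7 of 32 complex I genes and 3 of 15 complex V genes that had a promoter. In 8 of the 10 member promoters they lay in the forward direction after the start, at bases 23 to 39, against 276 of the 903 promoters with these letters (30.6%). A match describes letters and not binding, and no factor's binding was measured here.

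Complex I, the NADH dehydrogenase that opens the chain, was lower in the old library in all 4 main classes, with log2 ratios of its summed level of −0.24 in CAR-, −0.21 in osteolineage-, −0.20 in endothelial- and −0.40 in pericyte-gated cells. Its 7 nuclear-encoded core subunits, which carry the flavin and the iron-sulphur clusters, lay nearer to 0 than its 29 other subunits. In CAR-gated cells the core summed to 422 CPM in the adult library and 396 in the old one (−0.09, −0.11 to −0.08), and the others to 3323 and 2765 (−0.27, −0.27 to −0.26). In pericyte-gated cells the log2 ratios of the sums were −0.14 (−0.28 to 0.00) for the core and −0.43 (−0.49 to −0.38) for the others. In osteolineage-gated cells they were 0.04 (−0.02 to 0.10) and −0.24 (−0.26 to −0.22). In endothelial-gated cells the intervals overlapped, at −0.10 (−0.24 to 0.04) and −0.21 (−0.26 to −0.16). The core genes are also the longer ones, with a median longest transcript of 1661 bases against 908, and whether their length or their place in the complex goes with the gap cannot be told apart.

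Among single core genes in CAR-gated cells, Ndufs1, which encodes the largest subunit, was at 41.5 CPM in the adult library and 44.9 in the old one, a log2 ratio of 0.12 (0.06 to 0.17). Ndufv1 and the accessory gene Ndufs4 lay within counting error of 0, with Ndufs4 at 148 and 145 CPM (−0.02, −0.05 to 0.01). Loss of Ndufs4 is known to cause a Leigh-like brain disease in mice.

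Further core genes were lower, at −0.11 for Ndufs7 and Ndufv2, −0.19 for Ndufs3 and −0.25 for Ndufs8. The lowest of complex I were 2 small accessory subunits of its membrane arm. Ndufb1 was at 131 CPM in adult and 93.8 in old CAR-gated cells (−0.48, −0.52 to −0.44). Ndufa1, which is X-linked, was at 117 and 84.1 CPM (−0.47, −0.51 to −0.44).

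Among members past the minimum, Ndufa1 also had the widest gap in osteolineage-gated cells, at 311 CPM in the adult library and 137 in the old one (−1.18, −1.28 to −1.08). The adult level there was well above the adult level in the other main classes, and the old level was close to that of old pericyte-gated cells (125 CPM). Its ratio was −0.55 in pericyte-gated cells, and −0.21 in endothelial-gated cells, where the interval held 0. Ndufv1, the subunit that binds NADH, went the other way in osteolineage-gated cells, with 38.7 and 48.7 CPM (0.33, 0.15 to 0.51). Ndufa8, a subunit with paired cysteines of the intermembrane space, had the lowest ratio in endothelial-gated cells among members past the minimum, at 150 and 84.3 CPM (−0.83, −1.11 to −0.57). In pericyte-gated cells Ndufs4 was the highest of the members with at least 100 UMIs in each library, at 133 and 149 CPM, with an interval of −0.11 to 0.43.

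Complex III, which passes electrons from ubiquinol to cytochrome c, was lower in the old library in all 4 classes, at −0.28, −0.32, −0.20 and −0.47 in CAR-, osteolineage-, endothelial- and pericyte-gated cells. All 8 of its genes were lower in CAR-gated cells. Uqcrb, a small subunit at the ubiquinone side, was the lowest of them, at 169 CPM in the adult library and 114 in the old one (−0.57, −0.60 to −0.54). Uqcrfs1, the Rieske iron-sulphur protein, was at 45.5 and 33.6 CPM (−0.43, −0.50 to −0.37).

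The nearest to 0 were Uqcrh, the hinge protein, at 258 and 227 CPM (−0.18), and Uqcr11, at 140 and 124 CPM (−0.18). The core proteins Uqcrc1 and Uqcrc2 lay between these extremes, at −0.30 and −0.18. Cytochrome c itself, encoded by Cycs outside the pattern, was at 51.2 and 36.0 CPM in CAR-gated cells (−0.51), and at −0.40, −0.41 and −0.45 in the osteolineage-, endothelial- and pericyte-gated cells.

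Complex IV, the cytochrome c oxidase, had the widest gap of the complexes in CAR-gated cells (−0.33) and in pericyte-gated cells (−0.57), and was at −0.30 in osteolineage- and −0.19 in endothelial-gated cells. Cox6c and Cox8a were among its nuclear-encoded members with the most UMIs in CAR-gated cells. Cox6c was at 439 CPM in adult and 320 in old CAR-gated cells (−0.45, −0.47 to −0.44), and Cox8a was at 442 and 360 (−0.30, −0.32 to −0.28). In pericyte-gated cells Cox8a was at 838 and 558 CPM (−0.59, −0.72 to −0.46).

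Cox5a, a subunit of the matrix side, split between classes, at 130 and 98.0 CPM in CAR-gated cells (−0.40, −0.44 to −0.37) and 177 and 217 CPM in endothelial-gated cells (0.30, 0.12 to 0.47). Ndufa4, long counted in complex I and now placed in complex IV, was at 485 and 377 CPM in CAR-gated cells (−0.36). Cox4i1, the main form of subunit 4, lies outside the pattern and was at −0.13 in CAR-gated cells.

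Complex IV holds most of the paralogs, isoforms that replace each other in particular tissues. Ndufa4l2, a form known to be induced by low oxygen, had by far its highest level in pericyte-gated cells. It was at 664 CPM in adult and 377 in old pericyte-gated cells (−0.82, −0.97 to −0.67), against 46.5 CPM in adult chondrocyte-gated cells and at most 12.0 CPM in the other classes. Of the UMIs of Ndufa4 and Ndufa4l2 together, Ndufa4l2 held 85.5% (84.0% to 87.0%) in adult and 79.4% (75.8% to 82.8%) in old pericyte-gated cells, 8.53% in chondrocyte-gated cells and 2.75% or less elsewhere. Ndufa4 was correspondingly lowest in pericyte-gated cells, at 112 and 97.5 CPM, where both of its intervals lay far below those of CAR-gated cells.

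Outside these classes the levels of Ndufa4l2 were low, and the part of free RNA in them was not tested. In CAR-gated cells it was at 3.15 CPM in the adult library and 4.63 in the old one (0.56, 0.36 to 0.75). In osteolineage-gated cells it had 397 adult and 14 old UMIs, or 10.9 and 2.10 CPM (−2.38, −3.26 to −1.62), and did not pass the minimum. Cox4i2, the form of subunit 4 also tied to low oxygen, held 43.3% of the subunit's UMIs in adult and 40.2% in old pericyte-gated cells and 48.0% in adult chondrocyte-gated cells. It held 6.53% and 4.80% in CAR-gated cells and 0.297% and 0.0914% in early erythroid-gated cells.

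Cox6b2, described elsewhere as a testis form, was highest in CPM in early erythroid-gated cells, at 197 in the adult library and 159 in the old one. That was 24.3% and 19.4% of the UMIs of Cox6b1 and Cox6b2, while in globin-rich erythroid-gated cells this share was 15.5% and 29.8%. Cox6b2 had the lowest ratio of the complex IV genes past the minimum in CAR-gated cells, at 16.1 and 11.1 CPM (−0.54, −0.64 to −0.43). It was least in endothelial-gated cells, with 16 and 3 UMIs. The heart and muscle forms were nearly silent. Cox6a2 had 21 and 11 UMIs in CAR-gated cells and 0 UMIs in endothelial- and pericyte-gated cells of both libraries, against 92.3 and 75.4 CPM of its partner Cox6a1 in CAR-gated cells. Cox7a1 was at 1.15 and 1.38 CPM in CAR-gated cells (0.26, −0.08 to 0.60), against 206 and 168 CPM of Cox7a2, and Cox8b was left out with 17 adult UMIs and 1 old UMI.

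**Figure D3:**
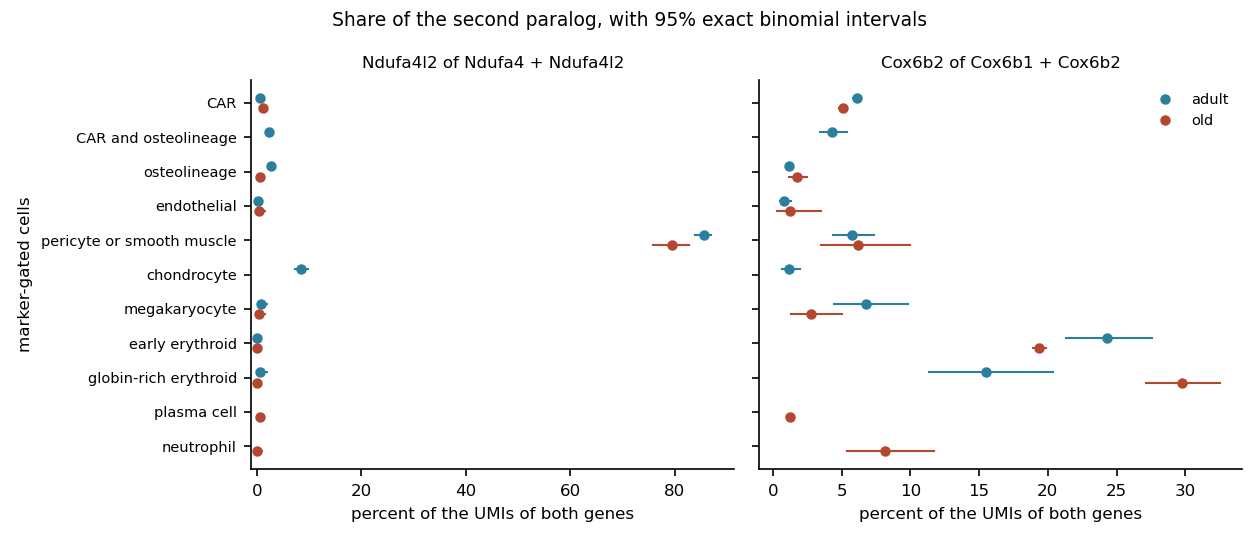
Share of Ndufa4l2 in the UMIs of Ndufa4 and Ndufa4l2 (left) and of Cox6b2 in those of Cox6b1 and Cox6b2 (right), in percent, in each marker-gated class of the adult and old library, with bars for the 95% exact binomial interval. Ndufa4l2 stands at 85.5% and 79.4% in pericyte-gated cells and at 8.53% or less in the others, and Cox6b2 is highest in the erythroid classes.

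Complex V, the ATP synthase, was lower in the old library by like amounts, at −0.28 in CAR-, −0.27 in osteolineage-, −0.20 in endothelial- and −0.49 in pericyte-gated cells. Atp5a1, the alpha subunit, was at 183 CPM in adult and 174 in old CAR-gated cells (−0.07, −0.10 to −0.04), and Atp5b, the beta subunit, at 196 and 172 (−0.19, −0.21 to −0.16). Atp5md, a small membrane subunit, was at 114 and 83.2 CPM (−0.46, −0.49 to −0.42).

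Atp5e, the epsilon subunit of the central stalk, was the lowest member of pericyte-gated cells with at least 100 UMIs in each library, at 378 and 214 CPM (−0.82, −1.03 to −0.62). For Atp5o, the stalk protein that gives oligomycin sensitivity, the 2 overlapping rows differed. ENSMUSG00000116933 was at 76.9 and 44.1 CPM in CAR-gated cells (−0.80) and ENSMUSG00000022956 at 107 and 95.8 CPM (−0.16), which summed to 184 and 140 CPM (−0.39, −0.42 to −0.36). In osteolineage-gated cells the first row was at 19.6 and 38.0 CPM (0.95), but the sum of both was 192 and 183 CPM (−0.07, −0.16 to 0.01). In endothelial-gated cells the first row had 255 adult and 12 old UMIs (−1.95, −2.92 to −1.12) and did not pass the minimum.

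The ring of c subunits is made from 3 genes that encode the same mature protein and whose start windows, printed above, held no motif in common. In CAR-gated cells Atp5g1, Atp5g2 and Atp5g3 held 25.5%, 39.0% and 35.6% of the family's UMIs in the adult and 26.7%, 39.9% and 33.4% in the old library. All were lower in the old library, at −0.20, −0.24 and −0.36. The mix differed between classes. Atp5g1 held 41.0% and 44.1% in early erythroid-gated cells, and Atp5g3 held 22.4% and 21.4% in osteolineage-gated cells.

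The subunits encoded by mitochondrial DNA did not share the members' direction in most classes. Their sum was 2.41% of UMIs in adult and 2.43% in old CAR-gated cells (0.01), and 2.62% and 2.69% in osteolineage-gated cells (0.04). In pericyte-gated cells it was higher in the old library, at 3.22% and 3.83% (0.25, 0.23 to 0.26). There 1 of 13 genes was lower, where 44.8% of all genes tested were. In endothelial-gated cells the sum was lower, at 2.85% and 2.58% (−0.14). Cells with over 10% of such UMIs had been left out of both libraries.

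Complex II, which feeds electrons from succinate and is wholly nuclear-encoded, was split. Sdha, its flavoprotein, was higher in the old library in all 4 classes, at 72.5 and 91.6 CPM in CAR- (0.34), 47.5 and 68.8 in osteolineage- (0.54), 82.3 and 122 in endothelial- (0.57) and 92.6 and 116 in pericyte-gated cells (0.33). Sdhb, Sdhc and Sdhd were at −0.14, −0.03 and −0.40 in CAR-gated cells. Ndufab1, the acyl carrier subunit of complex I, was at −0.38, Cyc1, the cytochrome of complex III, at −0.22, and Cox4i2 at −0.60 in the same cells.

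Related lists in CAR-gated cells lay on both sides of the members. Of all genes tested in these cells, 49.6% were lower in the old library. Genes of the mitochondrial ribosome were lower in 74 of 77 (median −0.31), and those of protein import in 14 of 15 (−0.31). Assembly factors of the complexes were lower in 30 of 40 (−0.13), cytosolic ribosomal proteins in 76 of 90 (−0.13) and enzymes of the tricarboxylic acid cycle in 9 of 16 (−0.12). Glycolytic genes were evenly split, with 7 of 14 lower (0.00), as were the regulators of mitochondrial gene expression with 6 of 10 (−0.06).

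In osteolineage-gated cells the genes of the mitochondrial ribosome were lower in 39 of 76 (−0.02), where 33% of all genes were lower with a median of 0.23. They were lower in 28 of 32 in endothelial-gated (−0.24; 53.2% of all genes) and 29 of 32 in pericyte-gated cells (−0.42; 44.8% of all genes). Immediate early genes are known to be induced when tissue is dissociated. In CAR-gated cells 20 of 20 were lower in the old library (median −0.62; 49.6% of all genes). The counts were 18 of 20 in osteolineage-gated (−1.01; 33% of all genes) and 13 of 18 in endothelial-gated cells (−0.26; 53.2%). In pericyte-gated cells 18 of 18 were lower (−0.79; 44.8%). The part of immediate early genes in the members' difference was not tested.

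Most members have short transcripts, and in CAR-, endothelial- and pericyte-gated cells other short transcripts were also mostly lower in the old library. The longest annotated transcript of a member (GENCODE M21) had a median of 983 bases, from 419 for Ndufa1 to 6310 for Atp5l, against 3070 over the genes tested in CAR-gated cells. With the genes split by transcript length into 4 equal bins, the shortest bin, up to 1860 bases, held 59 of the 76 members (77.6%). In that bin 65.0% of other genes were lower in CAR-gated cells, with a median of −0.18, against −0.25 for the members. In the next bin, the median was −0.04 for other genes (54.3% lower) and −0.28 for 12 members, and in the longest bin 0.13 and −0.19 for 2 members.

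In the other classes the shortest bin differed more from class to class than the members did. Its other genes had a median of 0.02 in osteolineage-gated cells, where 62 members had −0.19. The medians were −0.16 and −0.19 in endothelial-gated cells and −0.36 and −0.47 in pericyte-gated cells, so there the members lay close to other short genes.

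With each gene centred on genes of like transcript length, the log2 ratio of the members' sum was −0.13 in CAR-gated, −0.04 in endothelial-gated and −0.12 in pericyte-gated cells, and members below 0 numbered 54 of 76, 38 of 71 and 48 of 72. Such centring splits all genes about evenly around 0 by construction, and the endothelial-gated count was near that even split. In osteolineage-gated cells, 61 of 73 were below 0 after that centring. There the log2 ratio of the sum stayed inside its counting interval (−0.27 to −0.25) with length centring. Under 2 scalings that do not use length, the sum was at −0.49 when centred at the median of all genes and −0.56 with TMM, a scaling that discounts genes far apart. The counts here are of molecules captured at the 3′ end and were not divided by length, so length enters as a property that moves with the ratios, and what links them was not tested.

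**Figure D4:**
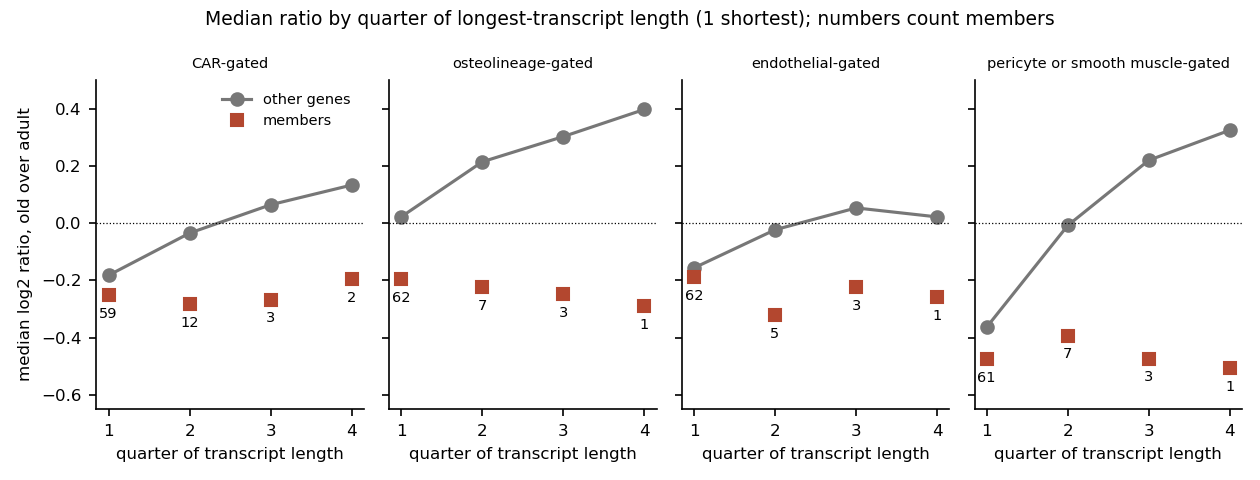
Median log2 ratio of old over adult CPM in 4 equal bins of longest transcript length (1 is the shortest) in the 4 main classes, for members (red squares, with their number) and all other genes tested (grey circles). The other genes go from −0.18 in the shortest to 0.13 in the longest bin of CAR-gated cells, while the members lie between −0.28 and −0.19.

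Across classes the members took the largest share of UMIs in early erythroid-gated cells, and the whole-library value of the old library moved with these cells. Early erythroid-gated cells, chosen by Klf1, Car1, Epor and related genes, gave 2.51% of UMIs to members in the adult library and 2.70% in the old one (0.10, 0.08 to 0.12), above the other classes of both. They numbered 32 adult and 545 old cells, with 154 and 191 cells within 20% of the threshold. Car1, an early red-cell gene, was at 1861 and 1794 CPM in them, but Slc4a1 was at 46.8 and 1.97, so the class differed in makeup between libraries.

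The median early erythroid-gated cell had 31800 UMIs in the adult library and 66410 in the old one. In the old library they were 2.87% of cells but 15.9% of UMIs and 35.0% of member UMIs, against 0.143%, 0.465% and 1.001% in the adult library. Over all kept cells the members therefore took 1.17% of adult and 1.23% of old UMIs (0.07), while without the erythroid-gated cells the shares were 1.16% and 0.947% (−0.30). Blood cells had been depleted and red cells lysed, so these shares of cells also carry that step.

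Within early erythroid-gated cells 51 of 72 members were higher in the old library (median 0.12), as were 63.7% of all 3439 genes tested, so their share was near the background. The mitochondrially encoded sum there was lower, at 3.49% and 2.61% (−0.42). In globin-rich erythroid-gated cells, 129 adult and 280 old, members took 0.785% and 1.12% of the summed UMIs (0.51, 0.48 to 0.55). Of 59 members tested, 58 were higher, as were 63.7% of all genes. The median of these cells went the other way, with a member share of 0.571% for adult and 0.510% for old cells. Lower quartiles were 0.344% and 0.311%, and upper ones 0.898% and 1.19%. The higher sum was thus seen in the upper part of these cells and not in the median cell. Globins and immunoglobulins took 49.0% and 45.5% of the UMIs of these cells, and of the other UMIs members held 1.54% and 2.06%.

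Megakaryocyte-gated barcodes (407 adult and 319 old) carry markers of the platelet-forming line but were of low complexity, with medians of 643 and 706 genes and 1565 and 1684 UMIs, so platelets cannot be told apart from megakaryocytes among them. They gave 1.47% and 1.34% of UMIs to members (−0.14, −0.17 to −0.10), and 39 of 57 were lower (42.3% of all genes). Complexes I and IV were at −0.22 each, and complex V was at 0.05 with an interval that held 0. Cox5a stood out in level, at 1121 CPM in adult and 932 in old megakaryocyte-gated cells, above the 478 and 640 CPM of early erythroid-gated cells and the 130 and 98.0 CPM of CAR-gated cells. Uqcrfs1 was highest in early erythroid-gated cells, at 193 and 223 CPM, and lowest in megakaryocyte-gated cells, at 21.7 and 23.8 CPM. Atp5g1 was also highest in early erythroid-gated cells, at 697 and 852 CPM.

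Classes with fewer than 30 cells in either library were not compared between ages. Members took 1.46% of UMIs in adult chondrocyte-gated cells and 1.34% in the adult cells with both CAR and osteolineage markers. They took 0.962% in old plasma cell-gated cells, where immunoglobulin and globin RNA held 45.7% of UMIs and members 1.77% of the rest, and 1.36% in old neutrophil-gated cells. Cox6a2 had 49 UMIs in the old plasma cell-gated cells, 1.91% of the UMIs of Cox6a1 and Cox6a2.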

How the data were processed

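Per the submitters' processing notes, Cell Ranger and GRCm39 were used, and the deposited matrices, which hold raw UMI counts, carry version 7.0.1 in the file headers. The annotation release and any barcode filter are not stated there. The lowest barcode total was 500 UMIs. Barcodes with fewer than 500 genes or over 10% mitochondrially encoded UMIs were left out here.

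Cells were gated by the summed share of marker UMIs per 10000 and a minimum number of distinct markers. The limits were 100 for CAR (6 markers), 400 for osteolineage (5), 40 for endothelial (4), 40 for pericyte or smooth muscle (4), 60 for chondrocyte (4), 100 for megakaryocyte (4), 400 for globin-rich erythroid (4), 5 for early erythroid (3), 24 for plasma cell (4) and 100 for neutrophil (4). Early erythroid-gated cells had to pass no other gate. UMIs were summed per class and library and scaled to CPM. A gene was tested where the mean CPM of both libraries times the smaller class total reached 50 UMIs. Intervals are exact binomial. With 1 library per age there is no test and no p-value. Members and lists were chosen with earlier results of these data known. Named were, among genes with at least 100 UMIs in each library, the 2 lowest and 2 highest ratios of each complex in CAR-gated cells and the 1 lowest and 1 highest in each other main class, with members 2-fold apart, paralogs, core subunits, the 5 with the widest range over classes and subunits outside the pattern. Other genes were named after their values were seen, and some genes that the rule takes are not reported here singly. Lengths came from GENCODE M21, matched by identifier.

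Alternatives were stricter cell filters, doubled gates, other totals, TMM, median and length centring, equal cell weights, a depth window and a higher minimum. Cells low in osteolineage markers, gene span, the deepest cells, the double-gated cells, Atp5o and the erythroid cells were varied after the data were seen. The calculation was tested on simulated data. Tools were Python 3.11.15, NumPy 2.4.6, SciPy 1.17.1, pandas 2.3.3, matplotlib 3.10.9, R 4.3.3 and edgeR 4.0.16, the last for TMM factors only.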

Additional observations from a re-analysis of the deposited data

Results flagged for a closer look

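Some ratios of old over adult pointed in opposite directions in different classes, and with 1 library per age group none of these differences was tested. The members' sum was higher in the old library in early erythroid-gated cells (log2 ratio 0.10) and in globin-rich erythroid-gated cells (0.51), and lower in CAR-gated cells (−0.28). The median globin-rich erythroid-gated cell had a lower member share among old cells (0.510%) than among adult ones (0.571%), so 0.51 holds for the sum only. The Atp5o row ENSMUSG00000116933 was at 0.95 in osteolineage-gated and −0.80 in CAR-gated cells, and overlaps another row of the same symbol. Cox5a was at 0.30 in endothelial-gated and −0.40 in CAR-gated cells. Ndufa4l2 was at −0.82 in pericyte-gated and 0.56 in CAR-gated cells, where it had 369 adult and 517 old UMIs.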

How the results depend on the processing

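No alternative turned the direction of the members' sum in a main class (15 alternatives in CAR-gated cells and 13 in each other class). In CAR-gated cells the log2 ratio of −0.28 became −0.28 with at least 1000 genes per cell, −0.29 with at most 5% mitochondrial UMIs, −0.29 with doubled gates, −0.25 with TMM, −0.28 centred at the median gene, −0.13 centred by transcript length, −0.16 by gene span, −0.23 with each cell weighted alike, −0.29 in cells of 3000 to 10000 UMIs, −0.30 with the double-gated cells added and −0.18 in cells low in osteolineage markers. In osteolineage-gated cells −0.26 became −0.23 with doubled gates, −0.28 with 4 gene groups left out of the totals, −0.56 with TMM, −0.49 centred at the median gene, −0.30 with each cell weighted alike, −0.35 in the depth window and −0.29 without the deepest 10% of cells. In endothelial-gated cells −0.20 became −0.17 centred at the median gene, −0.036 by transcript length, −0.053 by gene span and −0.14 with each cell weighted alike. In pericyte-gated cells −0.48 became −0.39 with doubled gates, −0.59 with TMM, −0.55 at the median gene, −0.12 by transcript length, −0.11 by gene span, −0.42 with each cell weighted alike and −0.43 without the deepest 10% of cells. Members below 0 numbered 38 of 71 in endothelial-gated cells centred by transcript length, near the even split that centring sets over all genes. With a minimum 4 times as high, which tests fewer genes, they numbered 21 of 25 in endothelial- and 29 of 29 in pericyte-gated cells. These counts are given without the share of all genes below 0 at that higher minimum. They therefore do not set members apart from other genes. Over all kept cells 0.07 became −0.30 without erythroid-gated cells and −0.30 also without plasma cell-gated cells. The cause of these shifts was not tested. No paired analysis was possible because each age group has 1 library. The interval held 0 for 44 of 71 members in endothelial-gated cells, against 17 of 72 in pericyte-gated cells. Summed UMIs were 8339774 adult and 1518154 old in endothelial-gated and 2722813 and 1138498 in pericyte-gated cells. The interval counts also depend on the size of the ratios, so they do not rank the classes by depth.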
